A study of Mus musculus with 2 samples.

Results

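Transglutaminases and the proteins that prepare or hold the cornified envelope were compared between a three-dimensional skin model of Itih5 knockout mouse cells and a wildtype model. The 10 genes were chosen by function, with earlier results of these data known, and taken from the array by symbol. They were the transglutaminases Tgm1, Tgm2, Tgm3 and Tgm5, the scaffold plakins Evpl and Ppl, the envelope and corneodesmosome proteins Cdsn and Cnfn, and the proteases Casp14 and Asprv1. Each of the 10 had 1 probe set that the platform annotation assigns to that symbol alone, out of 22180 genes with such a probe set. Both models were built from epidermal keratinocytes and dermal fibroblasts that had been isolated from adult mouse skin and passaged repeatedly until they no longer depended on a collagen coating, and both were taken at day 7, as their titles mark. The mice were untreated, and the labels give the genotypes as Itih5 knockout and wildtype without a strain, a sex or the part of the gene removed. Each genotype is represented by 1 model on 1 array, so no difference below has a replicate check, no p-value was computed, and the number of arrays limits the precision.

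The cornified envelope is the protein shell that replaces the plasma membrane of a keratinocyte as it dies at the skin surface. Envoplakin and periplakin line the inner face of the membrane, transglutaminases then weld precursors such as involucrin, loricrin and the small proline-rich proteins onto that scaffold by isopeptide bonds, and lipids are attached outside. Corneodesmosin rivets the finished cells together, and proteases such as caspase-14 and the aspartic protease of Asprv1 process filaggrin in the same layers.

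Values are probe set intensities in arbitrary units. The deposited numbers had lost their decimal point, which was put back before use. A digit string can allow several places for the point, and a place was accepted where the pair of values had a probability of at least 0.95. The point had 1 possible place on both arrays for 5 members (Tgm5, Evpl, Ppl, Cdsn and Casp14), was settled among several places for 3 (Tgm3, Cnfn and Asprv1), and stayed undecided for 2 (Tgm1 and Tgm2). The probability is learnt from all probe sets alike and favours similar values on both arrays, so among several places it picks small differences more readily than large ones. Genes were taken as expressed when either model reached 47.6, and all 8 members with a settled point lay above this level in both models. That intensity is the median, over all 33793 probe sets, of the log2 values averaged over both models, with undecided probe sets at their likeliest place.

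All 8 settled members read lower in the knockout model, 7 of them at least 2-fold. Over all 12506 expressed genes, 3.36% were lower by 2-fold or more and 3.85% higher by 2-fold or more in the knockout model, and 45.6% were lower by any amount. The median log2 difference of the 8 members, knockout minus wildtype, was -1.64, which is 3.12-fold lower, against 0.04 over all expressed genes. All 5 members with 1 possible place were at least 2-fold lower, with a median of -1.84, against 3.95% of the 7287 expressed genes with 1 possible place, of which another 4.19% were higher by 2-fold or more. For all 8 settled members, every possible place of the point gives a lower value in the knockout model, so the direction does not depend on the place chosen, whereas the size can.

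**Figure D1:**
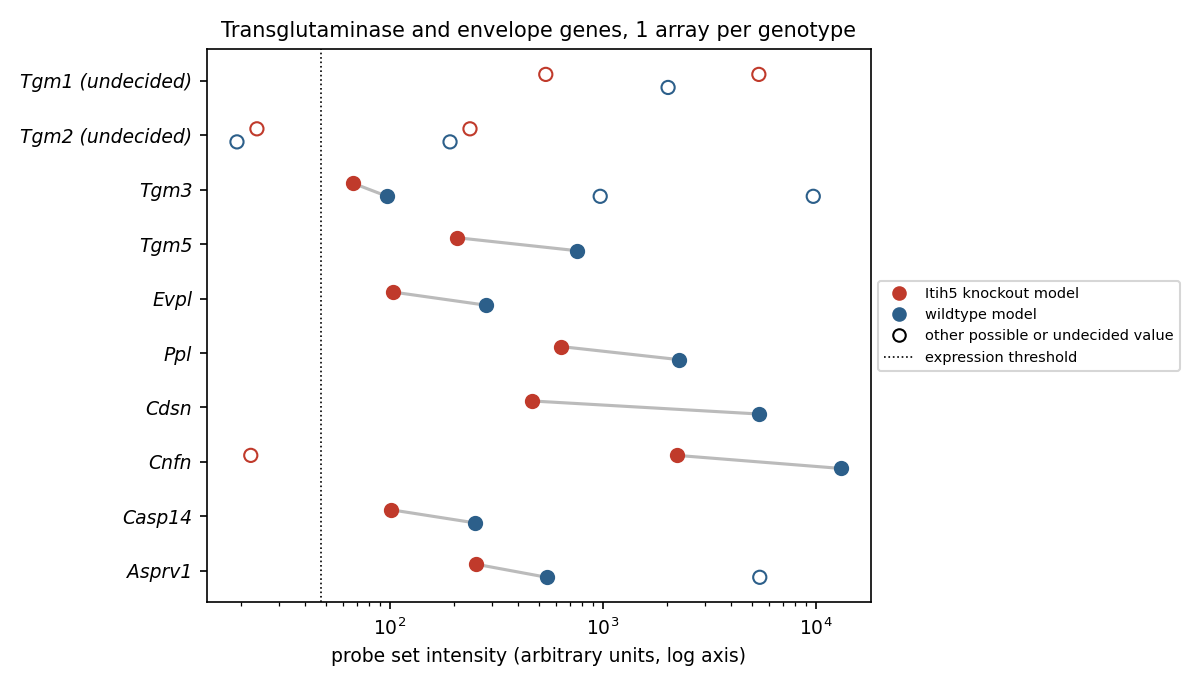
Intensity of each of the 10 genes (log axis, arbitrary units) in the Itih5 knockout model (red) and the wildtype model (blue), 1 array each. Filled points are the settled values, joined by a line, open points are other possible or undecided values, and the dotted line is the expression threshold of 47.6; in all 8 settled genes the knockout point lies left of the wildtype point.

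Among the transglutaminases, the clearest difference was that of Tgm5, an epidermal transglutaminase whose human counterpart is mutated in acral peeling skin syndrome. Its probe set (17390394) read 206 in the knockout model against 757 in the wildtype model, 3.68-fold lower. Tgm3, a zymogen of the epidermis and the hair follicle that is activated by cleavage, read 67.1 in the knockout model against 97.0 in the wildtype model (probe set 17376191), 1.45-fold lower. It was the 1 settled member under 2-fold. The knockout value had 1 possible place, but the wildtype digits also allowed 970.1 and 9701, and the value of 97.0 was kept with a pair probability of 0.996. Tgm3 therefore read lower at each place, by 1.45-fold at the least.

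Tgm1, the membrane-anchored transglutaminase of keratinocytes whose loss in humans causes lamellar ichthyosis, could not be settled. Its wildtype value was 2020 without ambiguity, and the knockout value was either 539 or 5388 (probe set 17306816). The likelier place, with a probability of 0.68, puts it 3.75-fold lower in the knockout model, and the other puts it 2.67-fold higher. Tgm2, the tissue transglutaminase that also crosslinks matrix proteins around fibroblasts, was undecided on both arrays (probe set 17393789). Its possible values were 23.7 or 237 in the knockout model and 19.1 or 191 in the wildtype model. The likeliest pair, 23.7 in knockout against 19.1 in wildtype, had a probability of 0.627 and lies below the expression threshold on both arrays. The pair of 237 in knockout against 191 in wildtype lies above it and would be 1.24-fold higher in the knockout model. Unequal places would pair 23.7 in knockout with 191 in wildtype, or 237 in knockout with 19.1 in wildtype, so the direction is undecided too. Neither gene enters a count or a median in these results, apart from Tgm1 under the alternative that takes every likeliest place.

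The other genes listed with the transglutaminase family all lay below the expression threshold in both models. These were Tgm4, Tgm6, Tgm7, the factor XIII A subunit gene F13a1, and Epb42, the catalytically inactive erythrocyte relative. F13b was listed as the gene of the other factor XIII subunit, not as a transglutaminase. The highest of these readings were 41.2 for Tgm6 and 42.0 for Tgm7, both in the wildtype model.

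Both plakins of the envelope scaffold were lower in the knockout model, and both had 1 possible place. Ppl, which encodes periplakin, read 633 in the knockout model against 2263 in the wildtype model (probe set 17327909), 3.58-fold lower. Evpl, encoding its partner envoplakin, read 104 in the knockout model against 282 in the wildtype model (probe set 17272262), 2.72-fold lower. Of 4 expressed plakins outside the envelope pair, only the desmosomal Dsp passed 2-fold, with 2744 in the knockout model against 7469 in the wildtype model. The cytoskeletal linkers Macf1 (551 in knockout against 803 in wildtype), Plec (419 in knockout against 390.3 in wildtype) and Dst (469 in knockout against 322 in wildtype) were under 2-fold, so the median of these 4 plakins was -0.22. The lower readings of Ppl, Evpl and Dsp were thus not seen for every plakin measured.

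The envelope and corneodesmosome proteins held the largest settled differences of the set. Cdsn, which encodes corneodesmosin, read 463 in the knockout model against 5389 in the wildtype model (probe set 17337197), 11.6-fold lower with 1 possible place. It had rank 27 from the lowest difference among the 12506 expressed genes. Cnfn, which encodes the envelope component cornifelin, read 2222 in the knockout model against 13083 in the wildtype model (probe set 17487919), 5.89-fold lower, at rank 72. The knockout digits of Cnfn also allowed 22.2, which would make the difference larger, and the value of 2222 was kept with a probability of 0.981.

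The processing proteases had smaller differences. Casp14, a caspase largely restricted to cornifying epithelia that takes part in filaggrin breakdown, read 101 in the knockout model against 250.2 in the wildtype model (probe set 17242548), 2.47-fold lower with 1 possible place. Asprv1, a retroviral-like aspartic protease that cleaves the linkers of profilaggrin, read 254 in the knockout model against 544 in the wildtype model (probe set 17460465), 2.14-fold lower. Its wildtype digits also allowed 5441, a 21.4-fold difference, and the smaller value was kept with a probability of 0.995. Flg, the filaggrin gene that both proteases serve, read 38.8 in the knockout model against 55.7 in the wildtype model, which is close to the threshold. By log2 difference the settled members ran from Cdsn at -3.54 through Cnfn at -2.56, Tgm5 at -1.88, Ppl at -1.84, Evpl at -1.44, Casp14 at -1.30 and Asprv1 at -1.10 to Tgm3 at -0.53.

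**Figure D2:**
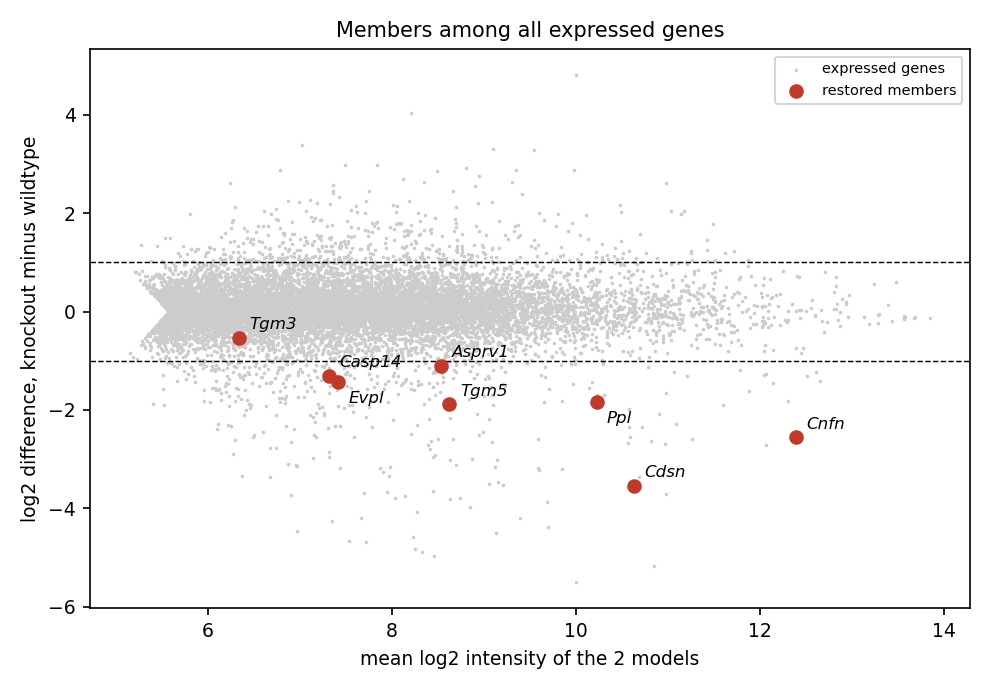
Log2 difference, knockout minus wildtype, against the mean log2 intensity of both models for each expressed gene (grey) and the 8 settled members (red). Dashed lines mark 2-fold, and 7 of the 8 members lie below the lower line, from Asprv1 at -1.10 to Cdsn at -3.54.

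The genes whose pair of values lay nearest to that of Cdsn, by Euclidean distance over the log2 values of the 2 models, were Sprr1a (515 in the knockout model against 5308 in the wildtype model, distance 0.15), the kallikrein gene Klk10 (558 in knockout against 7332 in wildtype, distance 0.52) and the protease inhibitor gene Spink5 (599 in knockout against 3838 in wildtype, distance 0.61). Nearest to Tgm3 were 1700012D14Rik, Wfikkn1 and Lzts1, at distances of 0.005, 0.03 and 0.03. With 2 samples this likeness covers only a level and a difference, and levels of different probe sets are not calibrated to each other.

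Among expressed genes next to a settled member in RefSeq order, those at Cdsn shared its difference and those at Evpl and Ppl did not. Of 20 genes adjacent to the members, settled or not, 10 were expressed with a settled point. Tinf2, Rabggta, Rprd1b and D630003M21Rik among these 10 flank the undecided Tgm1 and Tgm2, so there is no known difference for them to share. The median difference of the 10 was -0.12, and 2 of them were at least 2-fold lower. Both flank Cdsn. Psors1c2, a gene of the psoriasis susceptibility region, had 1 possible pair of places and read 42.2 in the knockout model against 366 in the wildtype model, and 2300002M23Rik read 171 in the knockout model against 1899 in the wildtype model, 11.1-fold lower, settled between 2 possible pairs. Lipe, the hormone-sensitive lipase gene next to Cnfn, came closest among the others, with 71.8 in the knockout model against 143 in the wildtype model. The genes beside Evpl (Ten1 at 0.21 and Srp68 at 0.42) read slightly higher in the knockout model, and Ubn1 beside Ppl stood at -0.01. Tgm5 lies between its family members Epb42 and Tgm7, both below the threshold.

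The promoter table from RefSeq (build GRCm38.p6) matched 7 members with 9 transcription starts, that is all members but Tgm2, Evpl and Ppl. The 250 bases before the start are shown for the transglutaminase with the largest settled difference, for the members with the largest differences of all, and for Tgm3, which was under 2-fold. Capitals mark CACCC, a core bound by Kruppel-like factors (GGGTG where it lies on the other strand), and the TATA box letters TATAAA. Cdsn is shown at the start that lies farther along the chromosome, which has a CACCC match. The 250 bases before its other start hold neither CACCC nor TATAAA on either strand.
Tgm5 (GRCm38.p6 chr2:121085842-121086091, - strand): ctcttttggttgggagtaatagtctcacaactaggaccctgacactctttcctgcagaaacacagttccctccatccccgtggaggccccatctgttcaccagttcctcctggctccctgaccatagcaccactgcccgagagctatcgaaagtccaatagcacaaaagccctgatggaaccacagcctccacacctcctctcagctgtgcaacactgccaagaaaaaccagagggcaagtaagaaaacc
Cdsn (GRCm38.p6 chr17:35551878-35552127, + strand): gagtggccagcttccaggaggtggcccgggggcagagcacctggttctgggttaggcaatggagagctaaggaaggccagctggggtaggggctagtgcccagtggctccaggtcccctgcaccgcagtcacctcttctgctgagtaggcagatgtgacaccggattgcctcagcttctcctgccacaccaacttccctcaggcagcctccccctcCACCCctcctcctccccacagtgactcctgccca
Cnfn (GRCm38.p6 chr7:25369725-25369974, - strand): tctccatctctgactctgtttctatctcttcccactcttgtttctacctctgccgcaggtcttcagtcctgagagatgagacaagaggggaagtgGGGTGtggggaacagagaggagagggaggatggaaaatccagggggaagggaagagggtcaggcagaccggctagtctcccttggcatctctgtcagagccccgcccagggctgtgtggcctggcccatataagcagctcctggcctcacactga
Tgm3 (GRCm38.p6 chr2:130012090-130012339, + strand): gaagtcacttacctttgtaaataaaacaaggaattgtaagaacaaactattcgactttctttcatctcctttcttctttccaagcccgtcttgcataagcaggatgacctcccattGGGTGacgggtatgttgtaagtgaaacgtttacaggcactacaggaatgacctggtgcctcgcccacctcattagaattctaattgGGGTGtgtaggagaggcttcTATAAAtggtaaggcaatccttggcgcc
CACCC on either strand was found in 7 of the 9 member promoters, against 52.0% of the 32851 promoters in the table. The TATAAA box was found on either strand in 1 of the 9, that of Tgm3 at 28 to 23 bases before the start, against 12.4% of all promoters. The AP-1 letters TGANTCA and the Grainyhead-like letters AACCNGTT, also searched on both strands, were in 0 of the 9, against 6.75% and 1.79% of all promoters. When the window was widened after this result to include the 50 bases after the start, 1 match appeared: AACCAGTT across the start of Tgm5, from base -4 to base 4, against 2.09% of all promoters. Overlaps of these motifs with one another did not occur in the sequences shown. A match is a string of letters and not an observed binding site.

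Other genes of envelope formation, from lists chosen by function with earlier results of these data known, mostly read lower along with the members. Of 34 expressed genes listed as envelope precursors (5 more were undecided), 23 were lower by 2-fold or more in the knockout model and 0 higher. Their median was -1.80. The list holds Sprr2j-ps, a pseudogene by its symbol, which is among the 23, and crosslinking of the listed products was not measured. Of the 34, 11 reached the expression threshold in the wildtype model only, 6 of them among the 23, so their inclusion depended on a higher wildtype value. With the threshold set on the mean of both models, 31 precursors remained, 23 of them lower by 2-fold or more, with a median of -1.91. Of 22 other expressed processing enzymes and inhibitors (3 more were undecided), 12 were lower by 2-fold or more and 0 higher (median -1.22). Klk11, among the 12, and Cst6 reached the threshold in the wildtype model only, and with the threshold on the mean the counts stayed the same. Ctsl, whose product activates transglutaminase 3 in mouse epidermis, read 8220 in the knockout model against 6243 in the wildtype model. Of 8 expressed desmosome partners of corneodesmosin (2 more were undecided), 7 were at least 2-fold lower, with a median of -1.54. The lowest were Dsg1a (78.5 in knockout against 802 in wildtype), Dsc2 (255 in knockout against 2318 in wildtype) and Dsg1b (218 in knockout against 1183 in wildtype). Of 13 expressed genes for lipids of the envelope (3 more, with Tgm1 among them, were undecided), 7 were lower by 2-fold or more and 0 higher (median -1.33). The lowest were the dehydrogenase gene Sdr9c7 at -3.76 and the epoxide hydrolase gene Ephx3 at -3.69.

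Transcription factors of the envelope programme read lower in part. Of 14 expressed factors (4 more were undecided), 8 were lower by 2-fold or more and 0 higher (median -1.01). Among the 8, Tfap2a at -1.005 and Casz1 at -1.0065 lie at the edge of the 2-fold limit. Hopx, also among the 8, reached the expression threshold in the wildtype model only. Grhl3, a Grainyhead-like factor known to activate Tgm1 in mouse epidermis, read 207 in the knockout model against 1178 in the wildtype model, 5.70-fold lower. Ovol1 (77.4 in knockout against 387 in wildtype) and Klf4, a Kruppel-like factor of barrier formation (284 in knockout against 1062 in wildtype), followed at 5.01-fold and 3.74-fold lower. Cebpb (449 in knockout against 263 in wildtype) and Rora (165 in knockout against 118 in wildtype) read higher in the knockout model, under 2-fold. Known partners of transglutaminase 2 at the cell surface and in the matrix read higher in part. Of 9 expressed partners (5 more were undecided), 3 were higher by 2-fold or more and 0 lower (median 0.98): Fn1, encoding fibronectin (2910 in knockout against 712 in wildtype), Mfge8 (1152 in knockout against 392 in wildtype) and Nid1 (1389 in knockout against 622 in wildtype). Under 2-fold, 4 more lay above 0 and 2 below it, the adhesion receptor gene Adgrg1 (166 in knockout against 287 in wildtype) and the annexin gene Anxa2 (3029 in knockout against 3926 in wildtype). Their undecided enzyme gene Tgm2 cannot be set beside them.

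**Figure D3:**
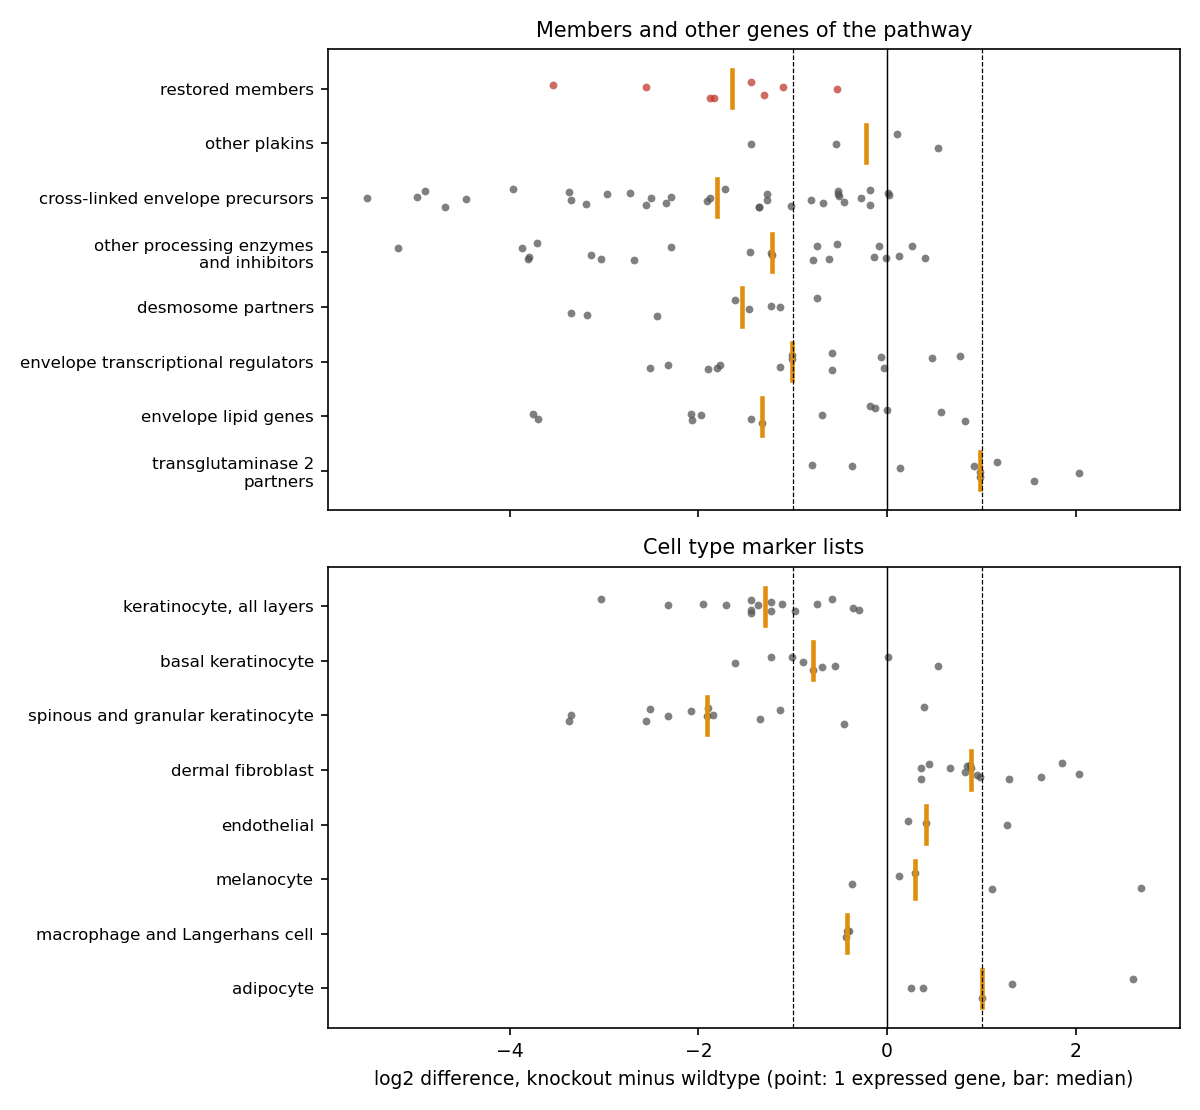
Log2 difference, knockout minus wildtype, of each expressed gene (point) in the lists of the envelope pathway (upper panel) and of cell type markers (lower panel), with the list median as a bar and dashed lines at 2-fold. The members' median is -1.64 and that of the listed envelope precursors -1.80, and all expressed dermal fibroblast markers lie above 0.

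Keratinocyte markers mostly read lower in the knockout model, as the settled members did. Of 16 expressed genes listed for all keratinocyte layers (4 more were undecided), 11 were lower by 2-fold or more and 0 higher, with a median of -1.30. Lypd3, among the 11, reached the threshold in the wildtype model only. With the threshold set on the mean of both models, these counts stayed the same. The summed intensity of the 16 was 17470 in the knockout model against 39268 in the wildtype model. Of these 16, 10 were in none of the pathway lists, and their median was also -1.30, with 7 at least 2-fold lower. The list ran from Prss8 at -3.03 to Epcam at -0.30, so its median stands for a wide spread. It shares Krt14 with the basal list and Ovol1 with the spinous and granular list. Basal markers had a median of -0.78 (3 of 9 at least 2-fold lower, sum 9632 in the knockout model against 21114 in the wildtype model), with 2 more undecided. Spinous and granular markers had a median of -1.91 (11 of 13 at least 2-fold lower, sum 4295 in the knockout model against 16931 in the wildtype model). Among them Dsg1a, Dsc1, Klf4, Krtdap, Sbsn, Ovol1 and Grhl3 are also in the pathway lists, and all were at least 2-fold lower. Of the rest, Krt10, Krt78, Calml3 and Serpinb3a were as well, whereas Krt1 was under 2-fold and Krt80 read higher in the knockout model. Serpinb3a and Krt1 reached the threshold in the wildtype model only. With the threshold set on the mean of both models, 12 spinous and granular markers remained. Of these, 11 were at least 2-fold lower, with a median of -1.99. Dsg3 and Dst of the basal list are in the pathway lists too. Set against the all-layer median, 6 of the 8 settled members lay lower, Casp14 by a margin in the third decimal, and Asprv1 and Tgm3 lay higher. In these bulk samples fewer keratinocytes and less RNA per keratinocyte cannot be told apart, and the part of cell makeup in the members' differences was not tested.

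Fibroblast markers read higher in the knockout model, with all 14 expressed ones above 0, 4 of them at least 2-fold higher, a median of 0.89 and a sum of 17667 in the knockout model against 9766 in the wildtype model. Another 3 fibroblast markers were undecided. Of 8 adipocyte genes, 5 were expressed, all above 0, and 3 of them were higher by 2-fold or more (sum 5719 in the knockout model against 1339 in the wildtype model), led by Fabp4, while Adipoq lay below the threshold. The other 2 of these 3 reached the threshold in the knockout model only. Of 8 melanocyte genes, 5 were expressed with a median of 0.29, and 2 of them, Mlana and Mitf, were higher by 2-fold or more. Mlana (705 in knockout against 109 in wildtype) made up most of the difference between the sums, 1340 for knockout against 493 for wildtype. Sox10 was on the other side, with 51.3 in the knockout model against 66.4 in the wildtype model, and Tyr and Dct lay below the threshold. Endothelial genes had 3 of 8 expressed (sum 216 in the knockout model against 138 in the wildtype model), with the defining Pecam1 and Cdh5 below the threshold. Kdr and Tie1 of these, and Kit of the melanocyte genes, reached the threshold in the knockout model only. The macrophage gene Aif1 reached the threshold in the wildtype model only. Macrophage and Langerhans cell genes had 3 of 9 expressed (sum 1049 in the knockout model against 1413 in the wildtype model), with Csf1r, Adgre1 and Cd207 below it, and 0 of 6 T cell and mast cell genes with a settled point were expressed. The labelled cell types were thus present in both models by Krt14 (4076 in knockout against 9538 in wildtype) and Col1a1 (2145 in knockout against 876 in wildtype). Itih5 itself read 30.4 in the knockout model against 29.8 in the wildtype model, below the threshold in both, so its probe set checks neither genotype label.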

How the data were processed

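Total RNA of 2 skin models was amplified and hybridised to 1 Affymetrix array each, per the labels' protocols. The deposited table holds linear intensities, 1 for each probe set and array. Neither the authors' summary of probes nor their normalization is stated in the labels. Of the 67586 deposited intensity values, 67457 had lost the decimal point. Only values with up to 2 decimals had kept it, so a lost point was placed before at least 3 digits. A place was allowed where it gave a number from 18 to 20000 that single precision writes with exactly those digits and that equals 2 raised to a single-precision exponent. Every value had such a place, and 21121 of 33793 probe sets (62.5%) had 1 on both arrays. For the others, pairs of places were weighted by the joint density of level and absolute difference, fitted by expectation maximisation (25 rounds) to the whole table. A minimum probability of 0.95 settled 31903 probe sets (94.4%), with 47.2 expected errors. The procedure was tried on simulated data with known points, made to obey the same placing rules. No probe set with 1 possible place was misplaced, which those rules fixed in advance. The simulation thus does not test whether the deposited values obey the rules. Settled pairs with large seeded differences were misplaced more often than settled pairs in general.

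Names come from the platform annotation where it gives exactly 1 symbol (23521 probe sets, with 1814 of several symbols and 8458 unnamed here). Where a gene had several, the probe set of highest mean stood for it. Differences were taken on the log2 scale, knockout minus wildtype, with no added normalization, as the column medians over settled probe sets were 46.3 (knockout) and 46.7 (wildtype). Background was marked by the 5th percentiles, 21.4 on both arrays. Where a value lies under the expression threshold no fold is given for that gene, since folds near background are compressed; counts and medians of lists include it where the other model reached the threshold. Counts are of genes that differ by 2-fold or more. The members, the gene lists and the rule for named genes were chosen with earlier results of these data known: all members, lists of 6 or fewer in full, at most 3 genes a side from longer lists (other genes named from them were chosen after their values were seen), and the 3 genes nearest to the lowest and highest member. Python 3.11.15, numpy 2.4.6 and pandas 2.3.3 were used. The alternatives tried were other normalizations, a pseudocount, other filters, sizes, probe set rules and rules for the decimal point.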

Additional observations from a re-analysis of the deposited data

How the results depend on the processing

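The differences of the 8 settled members were recomputed under 11 alternatives in normalization, pseudocount, probe set choice, filter and placing of the decimal point. Each kept its sign wherever it had a value. Only quantile normalization, median centring and the pseudocount changed a member's value. The other alternatives repeated the main values, and most could not have changed them. Each member has 1 probe set, and filters or probability limits only keep or drop a gene. Cdsn ranged from -3.54 to -3.49, Cnfn from -2.56 to -2.53, Tgm5 from -1.92 to -1.80, Ppl from -1.84 to -1.81, Evpl from -1.48 to -1.31, Casp14 from -1.34 to -1.18, Asprv1 from -1.14 to -1.05 and Tgm3 from -0.54 to -0.44. Cnfn has no value with a minimum probability of 0.99, and Tgm3, Cnfn and Asprv1 have none with 1 possible place only. The number of members at least 2-fold lower was 7 in the main analysis, 6 at the minimum probability of 0.99, 5 with 1 possible place only and 8 with every likeliest place, where Tgm1 joins. It was 7 at 1.5-fold and 4 at 3-fold, by construction of the threshold, and the number higher was 0 under each setting. The members' median ranged from -1.84 to -1.44. Of all expressed genes, 481 were higher and 420 lower; a threshold of 1.5-fold gave 1475 and 1062, one of 3-fold 126 and 183, and 1 possible place only gave 312 higher and 289 lower genes, since fewer genes were counted. These exceed the counts of 305 and 288 behind the shares of the 7287 genes, because here another probe set with 1 place could stand for a gene whose brightest one has several. The setting that does not treat differences alike in both directions and the filter on the mean of both models (475 higher and 415 lower genes) were chosen after seeing the data. No paired analysis was possible because either genotype is represented by 1 array, nor could an array be dropped.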
